A study of Mus musculus with 5 samples.

Results

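Macrophages exposed to LPS for 2 h were compared with macrophages exposed for 0.5 h, on 2 of the 5 arrays of a time course. LPS is the lipopolysaccharide of the bacterial outer membrane, here from S. minnesota at 10 µg per ml. The cells came from C3H/ARC mice, a C3H strain, whose marrow had been cultured with human CSF-1, the factor that drives precursors to become macrophages. The other 3 arrays held the same kind of cells without LPS (0 h) and after 7 h and 21 h. Every array was a two-colour cDNA array whose second channel carried whole-embryo RNA of C57BL6/J mice at day 17.5, a common reference that is no sample of the comparison. Each time was measured on 1 array, so no test was possible and no p-value is given. Precision is limited by this number of arrays, and a gene is counted as higher or lower from a difference of 2-fold on, which is a rule of size.

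The deposited value of a probe is a log ratio of the 2 channels. Its base, its direction and the dye of each channel are not stated in the labels. It was read as log10 of macrophage over embryo and is given below as log2, centred on the median of its array. The direction is likely, because 10 measured macrophage identity genes had a median log2 ratio of 2.54 at 0.5 h and 2.16 at 2 h and 35 whole-embryo genes one of -1.78 and -1.41. Both sets held members of the other sign. The macrophage genes ranged from -0.59 to 11.29 at 0.5 h and from -0.79 to 11.30 at 2 h. The whole-embryo genes ranged from -5.75 to 0.20 and from -5.66 to 0.39. With the opposite direction, higher and lower would exchange throughout. Averaging the probes with 1 gene symbol and a value on each of the 5 arrays by symbol gave 8637 genes, 5622 of them with a single probe. The difference given for a gene is its log2 ratio at 2 h minus that at 0.5 h, so that the embryo reference drops out of it. In RNA of whole cultures, fewer cells of a type and less RNA per cell cannot be told apart.

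LPS is sensed by the receptor TLR4. Through the adaptor MyD88 the receptor activates NF-kappaB and the MAP kinases, which switch on immediate early genes such as Fos within minutes and, somewhat later, genes of cytokines, chemokines and feedback inhibitors. Through the adaptor TRIF it activates IRF3, which switches on interferon-beta and Cxcl10, and secreted interferon then induces a further set of genes through STAT factors. The interval between 0.5 h and 2 h lies between the transient first genes and the interferon-driven ones.

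At 2 h, Fos and Btg2, both immediate early genes, stood well below their 0.5 h values, and their promoters are shown because each holds a motif counted below. Interferon-response genes such as Ifit1 and Rsad2 and the chemokine gene Cxcl10 stood well above, and theirs are shown for the same reason. Each stretch runs from 250 bases before to 50 bases after the gene's start, as given by RefSeq for the mouse build GRCm38.p6, and is written 5′ to 3′ on the gene's own strand. The genes to print were chosen after their values were seen, and other list members with the same motifs did not all lie the same way. In the first pair, capitals mark the cyclic AMP response element half-site TGACGT, on either strand; in the other genes they mark the core of the interferon-stimulated response element, TTTCNNTTTC or its reverse complement. The Fos stretch lies at chr12:85473640-85473939 on the plus strand, with its match starting at base -66, and that of Btg2 at chr1:134079106-134079405 on the minus strand, with 2 overlapping matches from -166 and -164. The Ifit1 stretch lies at chr19:34640639-34640938 on the plus strand with matches at -104 and -85. That of Rsad2 lies at chr12:26456403-26456702 on the minus strand with a match at -120, and that of Cxcl10 at chr5:92348840-92349139 on the minus strand with a match at -213.
Fos: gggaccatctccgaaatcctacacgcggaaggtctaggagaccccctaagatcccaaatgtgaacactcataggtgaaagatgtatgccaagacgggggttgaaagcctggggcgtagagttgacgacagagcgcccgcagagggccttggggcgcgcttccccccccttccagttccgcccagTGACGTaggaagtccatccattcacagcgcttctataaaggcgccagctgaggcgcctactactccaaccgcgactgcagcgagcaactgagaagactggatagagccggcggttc
Btg2: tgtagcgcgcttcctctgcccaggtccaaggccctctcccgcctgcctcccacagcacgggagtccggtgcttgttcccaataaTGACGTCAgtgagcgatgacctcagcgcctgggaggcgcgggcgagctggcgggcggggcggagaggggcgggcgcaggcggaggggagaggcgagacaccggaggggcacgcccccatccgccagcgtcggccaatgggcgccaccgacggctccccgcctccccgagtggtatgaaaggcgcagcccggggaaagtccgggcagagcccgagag
Ifit1: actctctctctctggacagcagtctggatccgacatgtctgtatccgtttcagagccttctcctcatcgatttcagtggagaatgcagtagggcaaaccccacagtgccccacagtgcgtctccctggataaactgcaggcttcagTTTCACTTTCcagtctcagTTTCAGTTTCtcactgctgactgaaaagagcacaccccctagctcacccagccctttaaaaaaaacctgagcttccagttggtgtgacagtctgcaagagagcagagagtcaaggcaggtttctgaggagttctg
Rsad2: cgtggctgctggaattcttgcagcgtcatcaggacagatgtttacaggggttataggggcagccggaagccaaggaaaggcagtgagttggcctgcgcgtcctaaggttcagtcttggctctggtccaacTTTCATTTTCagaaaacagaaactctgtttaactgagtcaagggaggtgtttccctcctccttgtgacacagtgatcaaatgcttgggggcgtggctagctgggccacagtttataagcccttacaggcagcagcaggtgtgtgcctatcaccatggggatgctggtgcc
Cxcl10: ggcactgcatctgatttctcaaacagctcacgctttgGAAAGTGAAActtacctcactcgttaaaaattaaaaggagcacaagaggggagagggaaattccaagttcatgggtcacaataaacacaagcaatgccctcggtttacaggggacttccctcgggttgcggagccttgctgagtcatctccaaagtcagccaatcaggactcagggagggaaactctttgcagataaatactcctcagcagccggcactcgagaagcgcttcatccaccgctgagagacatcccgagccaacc

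Over all genes, 694 of 8637 were at least 2-fold higher at 2 h than at 0.5 h, a share of 8.04%, and 138 were at least 2-fold lower, a share of 1.60%. The median difference of all genes was 0.01. Both arrays carried many high ratios, and the high ratios followed the probe number. Probes 10-fold or more above the median made up 2.87% of the 0.5 h array and 4.36% of the 2 h array, but 0.191% to 0.498% of the other 3. Of 207 runs of 96 consecutive probe numbers, 94 had at least 10% of their probes 2-fold or more above the 0 h array at 0.5 h or at 2 h. In these marked runs 15.4% of probes were at least 2-fold higher at 2 h than at 0.5 h, and elsewhere 4.45%. The shares of probes at least 2-fold lower were 2.45% and 2.62%. The runs were marked with the same 2 arrays, which widens the first contrast.

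**Figure D1:**
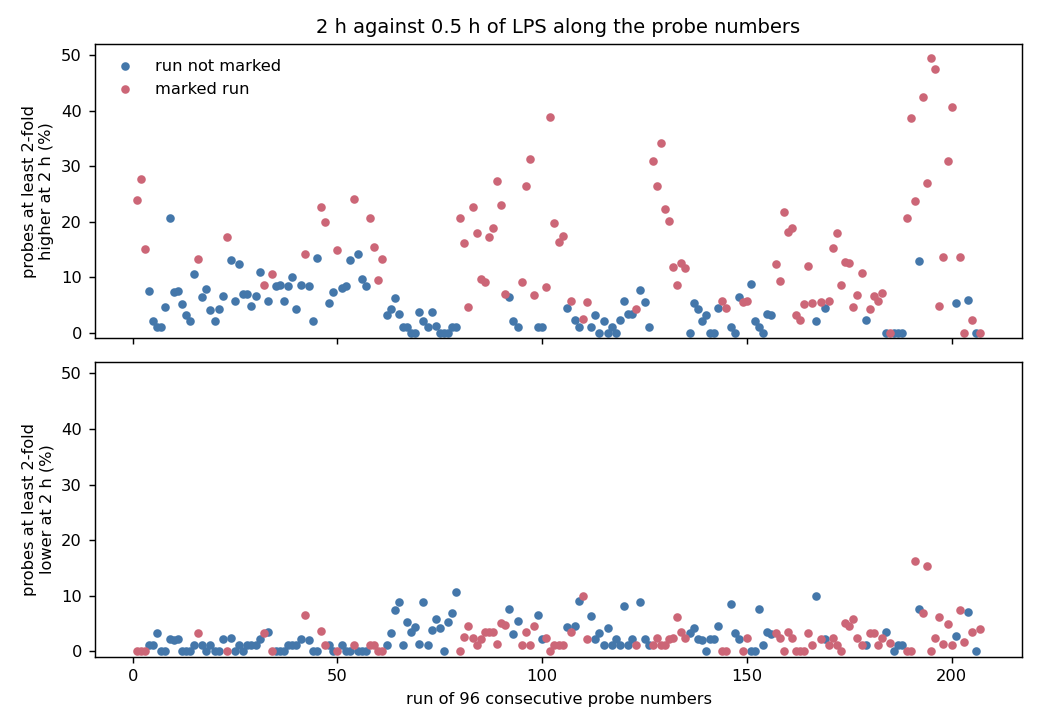
Share of probes, in percent, that were at least 2-fold higher or lower at 2 h than at 0.5 h in each of the 207 runs of 96 consecutive probe numbers, against the number of the run, with higher probes above, lower probes below and marked runs in red. The share of higher probes ran from 0 to 49.4% with a median of 6.52%, and no run had more than 16.2% of its probes lower.

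Of the 694 higher genes, 420 had all their probes in marked runs and 198 had none there. Of the 138 lower genes, 46 had all and 84 had none. Without the marked runs, 261 of 5996 genes were higher, 4.35%, and 123 were lower, 2.05%. The median difference of these 5996 genes was -0.07. Higher genes made up 83.4% of all that passed 2-fold, 68.0% of those without the marked runs, and 70.6% after quantile normalization, which brings the 5 arrays to one distribution and left 310 higher and 129 lower genes. Whether a gene's probes lie in marked runs is therefore given below for the genes past 2-fold, often with the percentile among the differences of the 96 nearest probe numbers. Of the genes under 2-fold, those named only for a promoter motif aside, Junb, Ier3, Myc, Il1rn, Ifit2, Fcgr1 and Hexa have all their probes in marked runs. The part of the probe position in these differences was not tested.

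Immediate early genes, the first transcripts of the response, had a median below 0 at 2 h against 0.5 h. The 29 measured genes of 42 listed had a median difference of -0.26. Of the 29, 3 were at least 2-fold lower and 1 was higher, against 1.60% and 8.04% of all genes. Without the marked runs the median of the 19 remaining genes was -0.26 as well, against -0.07 for all genes there. Of the 19, 1 was lower and 1 higher, against 2.05% and 4.35%. At 0.5 h the list had stood a median 0.33 above the 0 h array, with 8 of 29 genes at least 2-fold higher, against 5.95% of all genes, and both intervals share the 0.5 h array. Over the 10 genes with several probes the median was 0.11.

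Fos, a subunit of the transcription factor AP-1, had log2 ratios of 0.59, 2.90, 0.29, 0.71 and 0.85 at 0, 0.5, 2, 7 and 21 h. The 0.5 h array alone was high, and Fos was 6.12-fold lower at 2 h than there. Its single probe lies in a marked run, where it was lower than all 96 neighbouring probes, whose middle 95% ran from -0.61 to 2.35. Btg2, which restrains proliferation, had ratios of 0.31, 2.10, 0.52, 0.42 and 0.33 and was 2.98-fold lower at 2 h. Its 3 probes, 2 of them in marked runs, gave differences from -1.88 to -1.01, with an SD of 0.49 over probes, so each of them was at least 2-fold lower. Again the 0.5 h array was the only high one. Atf3, a stress-induced repressor of inflammatory genes, was high on all 5 arrays, with ratios of 3.36, 3.59, 2.36, 4.06 and 3.29. It was 2.34-fold lower at 2 h than at 0.5 h, on a probe of a marked run within the middle 95% of its neighbours.

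Gadd45b, a stress and survival gene of the GADD45 family, was higher at 2 h. Its ratios were 0.17, 1.28, 3.06, 2.86 and 1.31, so it was 3.44-fold higher at 2 h than at 0.5 h, and its 2 probes, 1 of them in a marked run, gave 1.62 and 1.94 at percentile 99.0 of their neighbours. Under quantile normalization the difference was 0.79. Several other immediate early genes did not reach 2-fold. Junb, a partner of Fos in AP-1 that was chosen after its values were seen, was as high at 2 h (3.35) as at 0.5 h (3.32). Ier3, an apoptosis regulator, differed by -0.76, Myc, the proliferation factor, by -0.40 and Zfp36l1, an RNA-binding protein of the tristetraprolin family, by -0.94. Rgs2, a regulator of G protein signalling that is not on the list and was chosen after its values were seen, had ratios of 1.54, 2.46, 0.83, 0.01 and -0.12, a difference of -1.63 on a probe of a marked run.

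**Figure D2:**
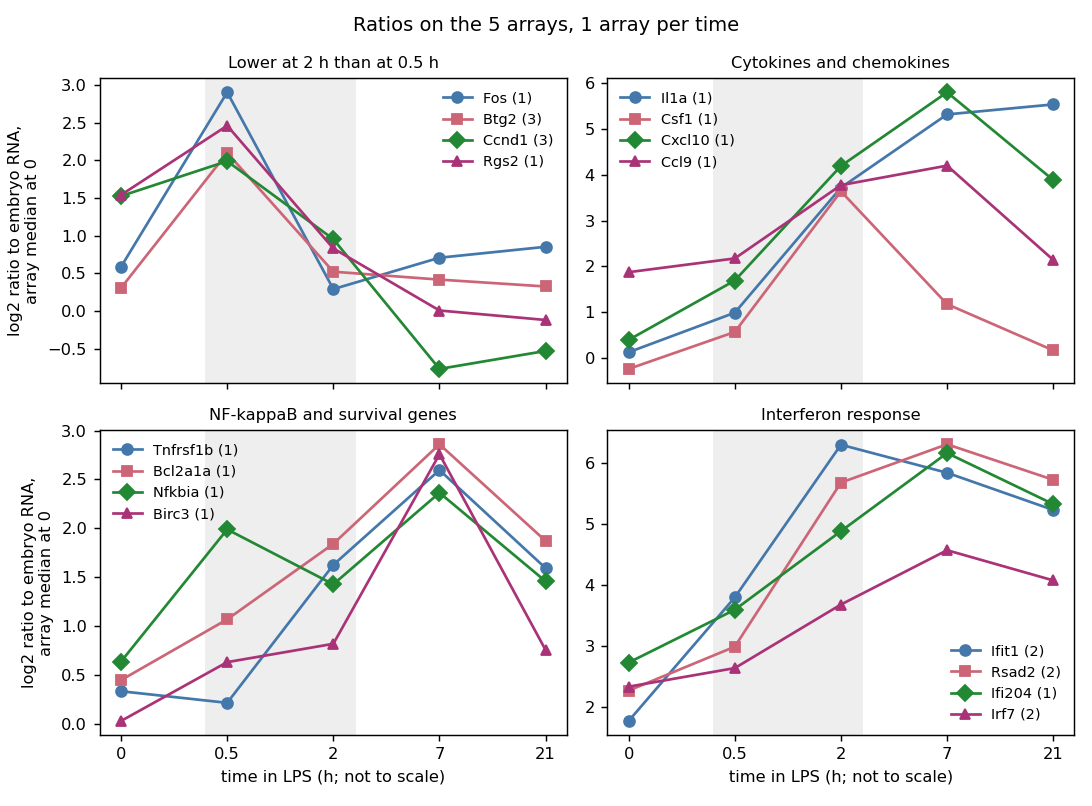
Log2 ratio of 16 genes to embryo RNA, with the array median at 0, against hours of LPS on the 5 arrays (1 array per time, axis not to scale); the number of probes stands beside each name and the 2 arrays compared are shaded. Fos and Btg2 peak at 0.5 h and lie at 0.29 and 0.52 at 2 h, while genes such as Cxcl10 (1.69 to 4.19) and Il1a (0.98 to 3.72) lie higher at 2 h than at 0.5 h.

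In the promoters of the immediate early list the CRE half-site was common. TGACGT was present in 8 of the 25 matched promoters of the list (32%), against 7.51% of all 32851 promoters of the same length and 13.1% of the promoters of measured genes. The 8 were those of Fos, Atf3, Egr2, Btg1, Btg2, Ccn1, Plk2 and Plk3. Of these genes Btg1, Ccn1 and Plk3 were higher at 2 h than at 0.5 h, by 0.21, 0.53 and 0.32, and the others were lower. Among all genes at least 2-fold lower at 2 h TGACGT was found in 17 of 103 promoters (16.5%), and among those at least 2-fold higher in 68 of 556 (12.2%). The AP-1 site TGANTCA was present in 9.71% and 8.63% of these promoters, against 7.18% of those of measured genes. A match describes letters only and no binding.

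Cytokine genes were sparsely represented, with 6 of 23 measured. Of the 6, 2 were at least 2-fold higher at 2 h, against 8.04% of all genes, and none was lower. The median difference was 0.41, but the median of the 3 genes without marked runs was -0.09, near the -0.07 of all genes there. Csf1, which encodes the growth factor of macrophages themselves, had ratios of -0.25, 0.56, 3.64, 1.17 and 0.16. It was 8.45-fold higher at 2 h than at 0.5 h and highest of the 5 arrays at 2 h. Il1a, the cytokine interleukin-1 alpha, had ratios of 0.12, 0.98, 3.72, 5.32 and 5.54 and was 6.67-fold higher at 2 h. It stayed high on the later arrays, above its 2 h value. Both have a single probe in a marked run, with Il1a above all its neighbours and Csf1 at percentile 99.0. Under quantile normalization their differences were 1.39 and 1.69. Il1rn, the secreted antagonist of interleukin-1, differed by 0.60, Il15 by -0.58, Vegfa by 0.21 and Il18 by -0.09.

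Chemokine genes, whose products attract leukocytes, had a median difference of 0.75 over 13 measured of 28 listed, the decoy receptor Ccrl2 among them. Of the 13, 6 were at least 2-fold higher, against 8.04% of all genes, none was lower and 3 lay below 0. Without marked runs the 9 remaining genes had a median of 0.17 with 2 higher, against 4.35% of all genes there. Under quantile normalization the median was 0.21 with 3 higher. Cxcl10, which attracts T and NK cells, had ratios of 0.39, 1.69, 4.19, 5.81 and 3.89. It was 5.69-fold higher at 2 h than at 0.5 h, with 1 probe in a marked run at percentile 99.0 of its neighbours. Its value at 7 h was higher again. Ccl9, a CC chemokine of macrophages, had ratios of 1.87, 2.17, 3.77, 4.20 and 2.14, a 3.04-fold difference on a probe of a marked run that lay within the middle 95% of its neighbours. Ccl12, a monocyte attractant, had ratios of -0.55, 0.20, 1.25, 0.98 and 0.84, a 2.07-fold difference on a probe of a marked run at percentile 95.8. Under quantile normalization the difference of Ccl9 was 0.43 and that of Ccl12 was 0.67.

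The probes of Ccrl2 and Cxcl12 lie outside the marked runs. Ccrl2, a chemerin-binding receptor of activated macrophages, had ratios of 0.87, 2.39, 3.60, 3.68 and 3.16. It was 2.31-fold higher at 2 h and above the middle 95% of its neighbours, but differed by 0.18 under quantile normalization. Cxcl12, a chemokine of stromal cells, was below the embryo reference on every array, with ratios of -1.29, -2.37, -0.76, -0.67 and -0.58. It was 3.05-fold higher at 2 h than at 0.5 h, and the 0.5 h array was the lowest of the 5. Ccl24, an eosinophil attractant, had ratios of -0.35, -1.04, 0.07, -1.22 and -1.31, a 2.16-fold difference on a probe of a marked run at percentile 83.3. Ccl17, Cxcl14 and Ccl5 differed by -0.68, -0.27 and -0.23.

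Genes of NF-kappaB feedback and of cell survival had the next highest median difference among the lists of the response, 0.70 over 10 measured of 29 listed. Of these, 4 were at least 2-fold higher, against 8.04% of all genes, and none lower. Without marked runs 1 of 8 was higher, against 4.35% of all genes there, with a median of 0.41. Under quantile normalization none of the 10 reached 2-fold in either direction, and the median was 0.39. Tnfrsf1b, which encodes TNF receptor 2, had ratios of 0.33, 0.21, 1.63, 2.60 and 1.59. It was 2.66-fold higher at 2 h on a probe outside the marked runs at percentile 97.9, and the 3 later arrays all lay above the 2 early ones. Sod2, the mitochondrial superoxide dismutase, had ratios of 0.12, 0.62, 1.77, 2.31 and 2.58 and was 2.22-fold higher over 4 probes, 3 of them in marked runs, that ranged from 0.32 to 1.99. Under quantile normalization the difference was 0.88 for Tnfrsf1b and 0.61 for Sod2.

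The other 2 genes past 2-fold rested on probes that disagreed. Nfkbib, an inhibitor of NF-kappaB, had probe differences of -0.40 and 3.21, both in marked runs, and Cflar, an inhibitor of caspase-8, of -0.17 and 2.91. For Cflar the higher probe lies in a marked run, and the difference without it was -0.17. Bcl2a1a, a survival gene of the BCL2 family, had ratios of 0.45, 1.07, 1.84, 2.86 and 1.87 and differed by 0.77, outside the marked runs. Nfkbia, an inhibitor that NF-kappaB itself induces, differed by -0.56, with ratios of 0.64, 1.99, 1.43, 2.36 and 1.46. Birc3, a ubiquitin ligase of TNF receptor signalling, differed by 0.19, with 0.63 at 0.5 h, 0.82 at 2 h and 2.76 at 7 h.

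Receptors and signalling proteins of the endotoxin pathway had a median difference of 0.07 over 9 measured of 32 listed genes. Of the 9, 2 were at least 2-fold higher, against 8.04% of all genes, and none was lower. Tlr2, the receptor of bacterial lipoproteins, had ratios of 0.97, 0.97, 2.33, 1.86 and 0.91 and was 2.57-fold higher at 2 h. Map3k8, the kinase that links NF-kappaB to ERK, had ratios of 1.06, 2.38, 5.41, 1.41 and 1.46 and was 8.17-fold higher. Both have 1 probe in a marked run, at percentiles 99.0 and 97.9, and under quantile normalization they differed by 0.66 and 1.20. Traf6, a ubiquitin ligase downstream of MyD88, differed by -0.55 and Ikbkg, the regulatory subunit of the IkappaB kinase, by -0.47.

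MAP kinases and their phosphatases had a median of -0.03 over 23 measured of 43 listed genes. Of the 23, 2 were at least 2-fold higher (8.70%), near the 8.04% of all genes, and 1 was lower, against 1.60%. Dusp3, a MAP kinase phosphatase, had ratios of 1.07, 2.07, 6.03, 0.17 and 0.32 and was 15.6-fold higher at 2 h, on a probe of a marked run in which 36.5% of neighbours were at least 2-fold higher. Mapk8, the kinase JNK1, differed by 1.20 on a probe of a marked run at percentile 77.1. Dusp6, the phosphatase of ERK, had ratios of 0.78, 0.92, -0.18, 0.36 and 0.74. It was 2.14-fold lower at 2 h on a probe outside the marked runs, at percentile 6.25, and 2 h was the lowest of the 5 arrays.

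Interferon-response genes had a median difference of 0.34 over 30 measured of 66 listed, a direction that turned to -0.14 under quantile normalization. A rise of 2-fold or more was seen in 7 of these genes, where the share among all genes was 8.04%. A fall of that size was seen in 2, where the share was 1.60%. The difference was below 0 in 12 of the 30. Without marked runs 3 of 20 were higher and 1 lower, with a median of 0.13. All genes there had shares of 4.35% and 2.05%. Under quantile normalization 1 of the 30 was higher and 2 were lower. Ifit1, an RNA-binding antiviral protein, had ratios of 1.76, 3.79, 6.30, 5.84 and 5.23. It was 5.68-fold higher at 2 h than at 0.5 h, and its 2 probes gave 2.41 and 2.61. The 2 h array was the highest of the 5, and all 3 later arrays lay above the 0.5 h value. Rsad2, which encodes the antiviral enzyme viperin, had ratios of 2.26, 2.98, 5.68, 6.31 and 5.72 and was 6.47-fold higher, with probe differences of 1.83 and 3.56. Both genes have their 2 probes in marked runs, and 30.7% of the neighbours of Ifit1 were at least 2-fold higher too. Under quantile normalization the difference was 0.72 for Ifit1 and 0.94 for Rsad2.

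Outside the marked runs, Ifi204, a DNA sensor of the HIN-200 family, had ratios of 2.72, 3.59, 4.88, 6.16 and 5.32 and was 2.45-fold higher at 2 h. Irf7, the factor that amplifies interferon production, had ratios of 2.33, 2.63, 3.67, 4.57 and 4.07 and was 2.06-fold higher, with probe differences of 0.21 and 1.88. Both had their highest value at 7 h. Under quantile normalization they differed by 0.11 and 0.07. Igtp, a GTPase of host defence, was 2.25-fold higher, with 0.37 and 1.97 on its 2 probes, 1 of them in a marked run, and ratios of 1.48, 1.55, 2.72, 3.90 and 2.59. Irf5, a factor of cytokine transcription, was 3.41-fold higher and Parp14, an ADP-ribosyltransferase, 3.02-fold, each on 1 probe of a marked run at percentile 91.7. Irf5 had a ratio of 5.45 at 2 h and 2.83 at 7 h. Igtp and Irf5 differed by 0.37 and 0.32 under quantile normalization.

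Lower at 2 h were Zbp1, a sensor of nucleic acids, and Ifi205, another HIN-200 protein. Zbp1 had ratios of 0.05, 0.87, -0.40, -0.10 and 0.01 and was 2.41-fold lower, and Ifi205 had 3.04, 3.45, 2.38, 4.73 and 3.76 and was 2.11-fold lower. Ifi205 thus lay the opposite way from Ifi204 in this interval, while both were higher at 7 h than at 0 h. The probe of Zbp1 is in a marked run, at percentile 2.08, and that of Ifi205 outside, at percentile 4.17. Irf9, Nmi and Irf1, transcription factors and a partner of the pathway, differed by 0.85, 0.72 and 0.68. Of genes chosen after their values were seen, Ifit2 differed by 0.48 and Ifit3 by -0.08, and Ifit2 was at 1.66 at 2 h and 4.22 at 7 h.

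The interferon-stimulated response element core shown in capitals above was present in 11 of the 25 matched promoters of the interferon list (44%), against 3.44% of all promoters and 3.69% of those of measured genes. Of the 11 genes, Ifit1, Rsad2 and Igtp were at least 2-fold higher at 2 h than at 0.5 h, and Ifi205 was at least 2-fold lower. Eif2ak2 differed by 0.78, Stat2 by 0.18, Oas1a by -0.0082, Ifitm3 by -0.05, Ifit3 by -0.08 and Socs1 and Lgals9 by -0.40 each. Among all genes at least 2-fold higher at 2 h than at 0.5 h the core was found in 23 of 556 promoters (4.14%), and among those lower in 6 of 103 (5.83%). These shares lie near that of measured genes. The NF-kappaB site GGGNNTTTCC was present in 14 of the 556 (2.52%) and 2 of the 103 (1.94%), against 1.90% of those of measured genes. Both strands were searched, and a window without the letters says nothing on the factor.

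Genes of prostanoids, nitric oxide, tissue factor and plasminogen activation had a median of 0.14 over 12 measured of 23 listed. Of the 12, 5 were at least 2-fold higher, against 8.04% of all genes, and none was lower. Without marked runs 2 of 7 were higher, against 4.35% of all genes there, and the median was 0.01. Under quantile normalization 4 of 12 were higher with a median of 0.02. Over the genes with several probes the median turned to -0.40, with none higher. Pla2g4a, the phospholipase that releases arachidonic acid, had ratios of 0.91, 1.44, 2.77, 2.80 and 1.29 and was 2.53-fold higher. Slc7a2, a transporter of arginine, had ratios of -0.29, -0.52, 0.81, 1.82 and 2.19 and was 2.52-fold higher. Both probes lie outside the marked runs, at percentiles 97.9 and 95.8, and both genes were above their early values at 7 h. Under quantile normalization Pla2g4a differed by 0.50 and Slc7a2 by 1.09.

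The other 3 have single probes in marked runs. Ptger4, a receptor of prostaglandin E2, had ratios of 1.89, 6.18, 11.04, 0.99 and 2.09 and was 28.9-fold higher at 2 h. It was high on the 0.5 h and 2 h arrays only, and under quantile normalization it differed by 2.23. Plaur, the urokinase receptor, had ratios of 1.43, 0.63, 3.29, 2.36 and 0.69 and was 6.32-fold higher, and Serpinb2, an inhibitor of plasminogen activators, was 3.19-fold higher at percentile 79.2 of its neighbours. Serpinb2 was higher still on the later arrays, at 2.53 and 3.16, than at 2 h, at 1.49. Alox5ap, the activating protein of 5-lipoxygenase, differed by -0.86 with an SD of 0.41 over probes, and Ptgs2, the inducible cyclooxygenase, by -0.60.

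Antimicrobial and acute-phase genes had a median of 0.45 over 9 measured of 25 listed, with 1 at least 2-fold higher and 1 lower. Saa3, the serum amyloid A of macrophages, had ratios of 0.16, 1.53, 2.61, 2.93 and 3.14 and was 2.11-fold higher at 2 h, on a probe of a marked run at percentile 96.9 and with a difference of 0.33 under quantile normalization. Ncf4, a subunit of the phagocyte NADPH oxidase, had ratios of 1.33, 1.94, 0.84, 1.53 and 1.64 and was 2.14-fold lower, outside the marked runs. Cyba, another subunit of that oxidase, differed by -0.80. Cfb, a complement factor, lay just under the limit at 1.99-fold, with an SD of 0.47 over probes, and Fgl2, a prothrombinase of activated macrophages, differed by 0.91.

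**Figure D3:**
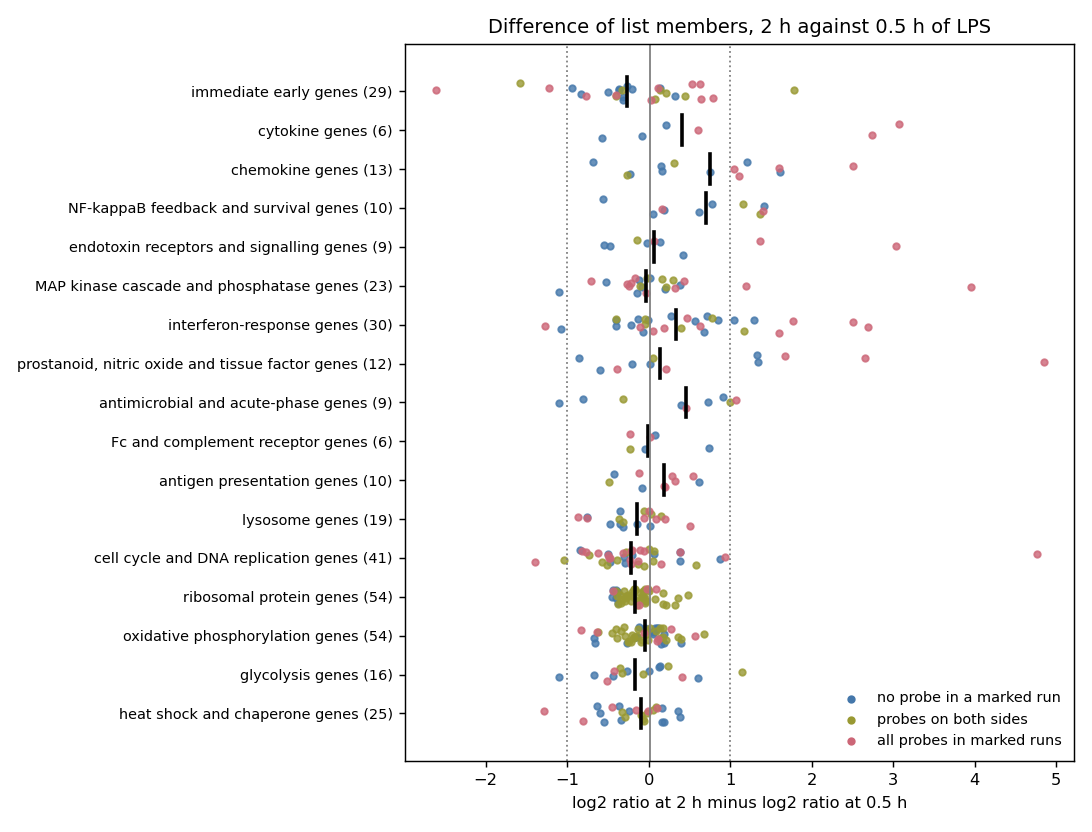
Difference between 2 h and 0.5 h on the log2 scale for every measured gene of the gene lists other than cell type markers, 1 point per gene, with colours for genes whose probes lie all inside, all outside or on both sides of the marked runs; black bars are list medians, the grey line is the median of all genes and dotted lines mark 2-fold. The medians run from 0.75 for chemokine genes to -0.26 for immediate early genes, and the 54 ribosomal protein genes all lie between -0.45 and 0.48.

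Among genes of basic cell functions, few reached 2-fold. Of 54 measured ribosomal protein genes none reached 2-fold, and the median was -0.16. Below 0 lay 45 of the 54, against 4201 of the 8637 genes in all. Without the marked runs 1 of the 50 left was at least 2-fold higher, against 4.35% of all genes there. The 54 genes of oxidative phosphorylation had a median of -0.04 and none at 2-fold, against 694 and 138 of the 8637 genes in all. Without the marked runs 3 of the 47 left were lower, against 2.05% of all genes there. The 19 lysosome genes had a median of -0.14, which was -0.31 without the marked runs and -0.50 under quantile normalization. The medians of all genes in these settings were -0.07 and -0.03. The 25 heat shock and chaperone genes had a median of -0.09, or -0.20 without the marked runs, and the 16 glycolysis genes one of -0.17. Slc2a1, the glucose transporter GLUT1, had ratios of -0.05, 1.16, 0.06, 0.56 and 0.63 and was 2.15-fold lower at 2 h than at 0.5 h, below all its neighbours and outside the marked runs. Pfkp, a phosphofructokinase, was higher, with a difference of 1.15 and an SD of 0.33 over 2 probes, 1 of them in a marked run. Hmox1, heme oxygenase 1, was 2.44-fold lower on a probe of a marked run at percentile 3.12, with ratios of 2.09, 2.52, 1.23, 2.21 and 4.33, so the 2 h array was its lowest and 21 h its highest.

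Cell cycle and DNA replication genes had a median of -0.21 over 41 genes, 29 of them below 0, against 4201 of the 8637 genes in all. Of the 41, 1 was at least 2-fold higher and 2 were lower, against 8.04% and 1.60% of all genes. Ccnd1, cyclin D1, had ratios of 1.53, 1.99, 0.95, -0.77 and -0.53. It was 2.05-fold lower at 2 h than at 0.5 h, its 3 probes, 1 of them in a marked run, gave differences from -1.17 to -0.97, and the 2 late arrays were lower still. Gins1, a subunit of the replicative helicase, differed by -1.40 and Cdca5, a cohesion factor, by 4.76, each on 1 probe of a marked run.

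Markers of the cell types that marrow cultures could hold did not reach 2-fold in either direction, apart from 1 higher gene of the 35 whole-embryo markers. The 10 macrophage markers had a median of -0.13 and ranged from -0.80 to 0.10, and under quantile normalization their median was -0.71 with 2 at least 2-fold lower. Median differences were 0.14 for 8 neutrophil, -0.32 for 5 B cell, 0.22 for 4 T and NK cell, 0.03 for 4 mast cell, 0.28 for 11 erythroid and -0.00 for 15 stroma markers. The B cell median turned to 0.25 without the marked runs. Fcgr1, the high-affinity IgG receptor, was very high on both arrays, at 11.29 and 11.30, against 4.46, 5.98 and 5.73 at 0, 7 and 21 h, so it differed by 0.02. Genes of antigen presentation had a median of 0.19 over 10 genes and none at 2-fold. That median turned to -0.26 under quantile normalization.

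With 1 array per time, the probes of a gene are the only repeats of its value, and they share the RNA and the array. Of the 694 higher genes 150 had several probes, and in 26 every probe was at least 2-fold higher; of the 138 lower genes 12 had several probes, and in 3 every probe was at least 2-fold lower. Over the 3015 genes with several probes, the pooled SD over probes was 0.69, and 0.51 outside the marked runs. Of 205 genes whose first probe was at least 2-fold higher, the next probe was so too in 36, 17.6%, against 7.93% of all next probes. Outside the marked runs the figures were 7 of 54, 13%, against 3.64%. In the lower direction the next probe passed in 3 of 65 genes, against 2.52% of all next probes, and in 1 of 26 outside the marked runs, against 3.09%. Over all 3015 genes with several probes, Spearman's correlation between the differences of the first and the next probe was 0.09. For 7 h against 0 h it was 0.24, and both values describe probes that share their arrays. In most genes the next probe did not pass 2-fold.

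Ranked by the probe that moved least, the highest genes included Ifit1, Rsad2, Gadd45b and Sdc4. Sdc4, the heparan sulphate proteoglycan syndecan-4, had ratios of 0.32, 0.77, 2.56, 2.79 and 0.68 and was 3.45-fold higher, with an SD of 0.06 over 2 probes at percentiles 99.0 and 100 of their neighbours. Gins2, another subunit of the replicative helicase, differed by 2.24, but its probes lay at percentiles 82.3 and 84.4, and its ratios of 2.71 and 4.95 stood against 0.64, 0.45 and 0.49 on the other arrays. Mastl, a mitotic kinase whose probes lie in marked runs like those of Gins2, had the same shape, with 2.22 and 3.96 against 0.98, 0.84 and 0.20. Under quantile normalization Sdc4, Gins2 and Mastl differed by 0.94, 0.76 and 0.59. Ldb3, a Z-disc protein of muscle, differed by 1.65 with an SD of 0.02, but was below the reference on all 5 arrays. 1700029M20Rik, Fabp2, a fatty acid-binding protein of the gut, and Rab11fip1, a Rab11 effector, completed the list with differences of 2.44, 1.85 and 3.51, the last with an SD of 2.75. Of their 2 probes each, Sdc4, 1700029M20Rik and Fabp2 have 1 in a marked run, Rab11fip1 has both and Ldb3 has none.

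The lowest genes by this ranking were Ptgds, Chrac1, Btg2, Utp15, Ccnd1, Alg5, Mtss1, Hexa, BC005537 and Mrpl54. Ptgds, a prostaglandin D synthase, had ratios of -1.22, -1.44, -2.95, -1.58 and -1.09 and differed by -1.50 with an SD of 0.54 over 2 probes outside the marked runs. Its 2 h array was the lowest of the 5. Hexa, a lysosomal hexosaminidase, differed by -0.87 with an SD of 0.13 and Utp15, a ribosome biogenesis factor, by -1.21 with an SD of 0.32. Both had their highest value at 0.5 h, at 3.77 and 1.27, and Utp15 and Chrac1 each have 1 of 2 probes in a marked run.

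The 5 largest and 5 smallest values of all rested on single probes apart from Chrac1, and each of these genes but Tc2n has a probe in a marked run. Mecom, a transcription factor of stem cells, differed by 9.58, with ratios of 0.71, 2.35, 11.93, 0.16 and 0.56, and Nfatc1, Rbm34, Phactr3 and Tc2n followed with 7.73, 7.20, 7.08 and 7.03. At the other end Plut differed by -7.69, with 9.63 at 0.5 h and between 0.23 and 1.94 on the other arrays. Ly6g2 differed by -4.30, Chrac1 by -2.73, AV064505 by -2.62 and Fos by -2.61. Tc2n lies outside the marked runs and had ratios of 1.52, -0.10, 6.94, -0.10 and 0.12. It led the genes that stood beyond their neighbours there, before Me3, Ap2s1, 4732440D04Rik, Ppp2r2b, Slc5a4b, Tex44 and Adam18, at 6.01 to 4.17. All of these, Tc2n included, were 8.74-fold to 153-fold above 0 h at 2 h, but at most 1.04-fold at 7 h. The lowest genes outside the marked runs and beyond their neighbours were Os9, Zfp619, Pcif1, Zfp523, Ccdc32, Cbr2, Ubac1 and Tmub2, at -2.25 to -1.69, each on a single probe. Zfp619, Pcif1 and Ccdc32 were 27.9-fold, 47.3-fold and 22.4-fold above 0 h at 0.5 h. At 2 h they were still 5.95-fold, 11.1-fold and 5.46-fold above it. High ratios on the early arrays thus occurred outside the marked runs too. Os9, a lectin of protein quality control, had ratios of 0.59, 1.17, -1.09, 0.46 and 0.62.

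The 7 h and 0 h arrays, which the difference between 2 h and 0.5 h did not use, gave another look at the same genes. All 5 arrays set which probes counted, and the 0 h array helped to mark the runs. At 7 h, 352 of the 8637 genes were at least 2-fold higher than at 0 h, 4.08%, and 273 were lower, 3.16%. Of the 694 genes higher at 2 h than at 0.5 h, 62 were also higher at 7 h than at 0 h, which is 8.93% of the 694 and 17.6% of the 352. In the opposite direction, 74 of the 694 were at least 2-fold lower at 7 h, 10.7%. Outside the marked runs 36 of 261 genes were also higher, 13.8%, against 4.52% of all genes there, and 23 were lower, 8.81%, against 2.87%. The genes that passed 4-fold shared the late direction less: 9 of 194 were also higher at 7 h, 4.64%, and 31 were lower, 16.0%. Of the 138 lower genes 9 were also lower at 7 h, 6.52% of the 138 and 3.30% of the 273. They were Ccdc32, Rgs2, Zfp354b, Ablim1, H1f2, Eif2s3x, Arl11, Cts6 and Ccnd1. Ccdc32 and Eif2s3x were 22.4-fold and 9.64-fold above 0 h at 0.5 h and still 5.46-fold and 4.17-fold above it at 2 h. Rgs2, Zfp354b and Eif2s3x have their single probe in a marked run, and Cts6 and Ccnd1 have 1 probe there.

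Of the 62 genes higher in both comparisons, 21 were members of the gene lists, which were chosen with earlier results of these data known and hold 452 of the 8637 measured genes. Cxcl10 was 42.8-fold higher at 7 h than at 0 h, Il1a 36.9-fold, Ifit1 16.9-fold and Rsad2 16.5-fold. Ifi204 was 10.9-fold higher, Ccrl2 7.05-fold, Gadd45b 6.45-fold, Tnfrsf1b 4.80-fold, Irf7 4.73-fold and Slc7a2 4.31-fold. Csf1 and Pla2g4a, at 2.67-fold and 3.71-fold, were also among them. The response-element core TTTCNNTTTC was present in 11 of 52 matched promoters of the 62 genes (21.2%), against 3.69% of those of measured genes. The 11 were Rsad2, Cxcl10, Ifit1, Ifit1bl2, Igtp, Saa3, Tnfrsf1b, Cflar, Srgn, Plekha4 and Pde1b. The AP-1 site was present in 8 of the 52 (15.4%), against 7.18%, and the CRE half-site in 8 (15.4%), against 13.1%. The NF-kappaB site was present in 2 (3.85%), against 1.90%. The 62 genes were chosen by the 7 h array too, and among all genes higher at 2 h the core was in 4.14% of promoters. Its share among all genes higher at 7 h than at 0 h was not determined.

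**Figure D4:**
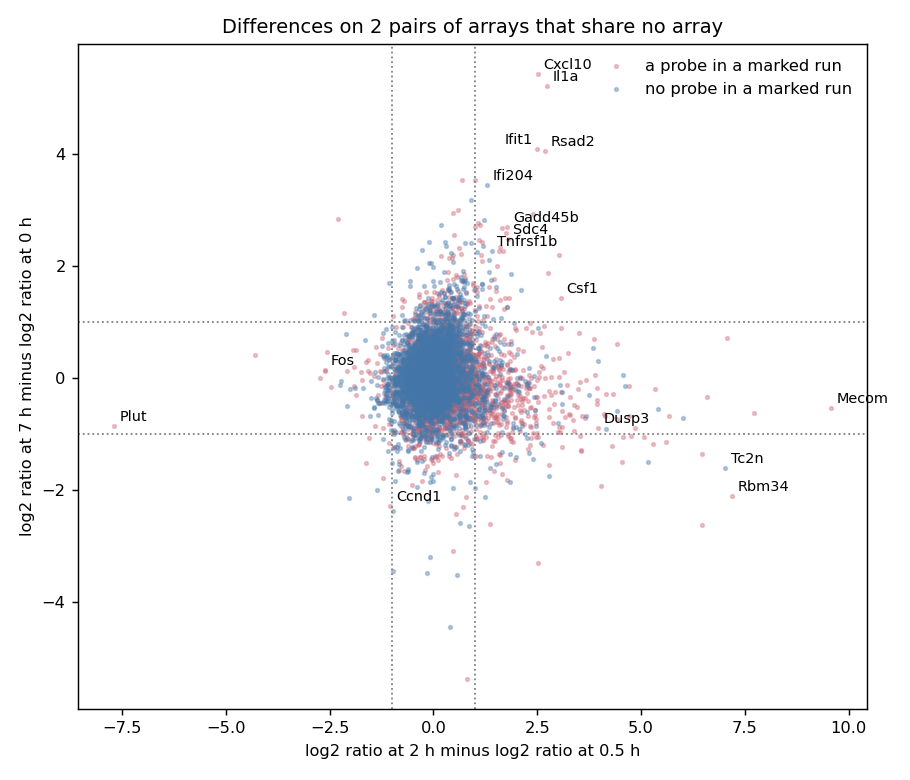
Difference between 7 h and 0 h against the difference between 2 h and 0.5 h, both on the log2 scale, 1 point per gene for the 8637 genes, with genes that have a probe in a marked run in red; dotted lines mark 2-fold. The 2 comparisons share no array, and 62 genes lie in the upper right corner, 74 in the lower right and 9 in the lower left.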

How the data were processed

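Array preparation, dye assignment and normalization by the authors are not given in the sources used here beyond total RNA and amino-allyl labelling, per the labels. The deposited values are log ratios, read as log10 from their size, and were multiplied by 3.32 to give log2. Read as log2, every difference would be 3.32 times smaller. The median of the 18296 probes with a value on every array was subtracted, array by array. Of 19828 probes, 14759 had 1 symbol in the platform annotation of 2008, 170 had several and 4899 were not listed. Entrez identifiers matched 14628 to the RefSeq gene table. The 13782 probes with 1 symbol and values on all 5 arrays gave 8637 genes.

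Named genes were the 10 highest and 10 lowest with several probes, ranked by the probe that moved least, 8 each way outside marked runs and beyond their neighbours, 5 each way of all, up to 6 of each list and every member of the immediate early, cytokine, chemokine, NF-kappaB and interferon lists past 2-fold. Birc3, Ccl5, Ccl17, Cxcl14, Ier3, Ifit2, Ifit3, Irf1, Irf9, Junb, Myc, Nfkbia, Nmi, Ptgs2 and Rgs2 fall outside this rule and were chosen after their values were seen. Genes listed as holding a promoter motif are all those found in the set described. Members and lists were chosen with earlier results of these data known. Scripts used Python 3.11.15, pandas 2.3.3, numpy 2.4.6 and matplotlib 3.10.9 and were tested on simulated data.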

Additional observations from a re-analysis of the deposited data

How the results depend on the processing

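No paired analysis was possible because each time has 1 array and the values come from no test; for the same reason no array could be left out. The settings below changed 1 choice at a time, except quantile normalization over probes outside the marked runs, which changes 2 choices together and was added after seeing the data. The count of genes at least 2-fold higher, 694, was 261 without the marked runs, 310 after quantile normalization, 220 with quantiles taken outside the marked runs, 57 with the values read as log2, 150 with 2 or more probes required and 196 with every probe required beyond its neighbours. It was 1406 at 1.5-fold and 194 at 4-fold. The count of lower genes, 138, was 2, 12 and 91 under the log2 reading, the probe requirement and the neighbour requirement, and 707 and 16 at 1.5-fold and 4-fold. Other centring and probe choices kept both counts within 1.5 times.

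The median of immediate early genes, -0.26, was -0.079 read as log2 and 0.11 over genes with several probes, a reversal. That of cytokine genes, 0.41, reversed to -0.086 without the marked runs and to -0.0068 with quantiles outside them, and was 0.12 read as log2. The median of all genes was -0.075 without the marked runs and -0.021 with quantiles outside them. That of chemokine genes, 0.75, was 0.17, 0.21, 0.22 and 0.25 without the runs, by quantiles, read as log2 and with quantiles outside the runs. For NF-kappaB genes, 0.70, the same settings gave 0.41, 0.39, 0.21 and 0.37, and genes with several probes gave 1.37. For interferon-response genes, 0.34, they gave 0.13, -0.14, 0.10 and -0.11, with reversals under both quantile settings, and genes with several probes gave 0.63. Of chemokine genes 2 had several probes, with a median of 0.02 and none at 2-fold, and of cytokine genes none had. Of single genes past 2-fold, Cflar reversed, to -0.17 without the marked runs and -0.10 with quantiles outside them. The cause of these shifts was not tested.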

Other observations

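Of the 62 genes that were at least 2-fold higher both at 2 h than at 0.5 h and at 7 h than at 0 h, 41 were on none of the gene lists; those named here were chosen after their values were seen. Ptprj, a receptor tyrosine phosphatase of blood cells, had log2 ratios of 0.34, -0.06, 2.05, 1.91 and 1.34 at 0, 0.5, 2, 7 and 21 h. It was 4.32-fold higher at 2 h than at 0.5 h, and the 3 later arrays all lay above the 2 early ones. Parp9, a partner of interferon signalling, stood at 1.48 at 0.5 h, 2.86 at 2 h and 3.25 at 7 h and was 2.60-fold higher, above all its neighbouring probes. Pde4b, a cyclic AMP phosphodiesterase, differed by 1.18, Smox, which oxidises spermine, by 1.22 and Dram1, a lysosomal regulator of autophagy, by 1.20. The probes of these 5 genes lie outside the marked runs.

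Among those with several probes, Pim1, a survival kinase, had a ratio of 3.63 at 2 h and 3.26 at 7 h, with 0.54 before LPS. It differed by 1.13 with an SD of 0.37 over 4 probes, all in marked runs and at percentiles 80.2 to 87.5 of their neighbours. Srgn, the proteoglycan core of secretory granules, differed by 1.18 with an SD of 0.73 over 3 probes, and Peli1, a ubiquitin ligase of Toll-like receptor signalling, by 1.46 with an SD of 1.12. Srgn and Peli1 each have 1 of 3 probes in a marked run, and their lowest probe differences were 0.34 and 0.18. Cav1, the coat protein of caveolae, was below the embryo reference on every array, at -2.41, -2.03, -0.98, -1.31 and -1.72. It differed by 1.06 with an SD of 0.12 over 3 probes, 2 of them in marked runs. That all 4 had their 0 h value below their 7 h value by at least 2-fold follows from how they were chosen.

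Probes without a single gene symbol in the annotation were also measured. Of 4514 such probes on all 5 arrays, 553 were at least 2-fold higher at 2 h than at 0.5 h, 12.3%, and 150 were lower, 3.32%. Of the 13782 probes with 1 symbol the shares were 8.32% and 2.29%.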
